A study of Mus musculus with 6 samples.

Results

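The NF-kB subunits and feedback regulators described here are 10 genes chosen by symbol: the subunit genes Nfkb1, Nfkb2, Rel, Rela and Relb, the inhibitor gene Nfkbia, the nuclear cofactor genes Nfkbiz and Bcl3, and the ubiquitin-editing and ubiquitin ligase genes Tnfaip3 and Birc3. Each had 1 row among the 55487 genes of the count table, and all 10 had enough counts to be tested. Day 2 dorsal skin was sequenced whole, from 3 mouse samples treated with DPCP and from 3 controls. DPCP, diphenylcyclopropenone, is a chemical that sensitizes skin and brings on contact allergy. The labels give no genotype, strain, age or sex for either group, do not state what was put on control skin, and name no animal behind a sample. Spread between replicates may thus be technical in part, and p-values measure no more than that spread.

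NF-kB is a family of dimeric transcription factors held in the cytoplasm by IkB proteins until a receptor signal leads to the destruction of the inhibitor. In the canonical route, tumour necrosis factor and interleukin 1 receptors activate the IkB kinase complex and free dimers such as p50 with RelA. In the non-canonical route, the kinase NIK, encoded by Map3k14, drives the processing of p100, the product of Nfkb2, so that p52 can act with RelB. The pathway induces several of its own brakes, and in skin it takes part in the response of keratinocytes, endothelium and immune cells to irritants and allergens.

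Promoters can carry DNA letters through which the family may bind its own genes, so they are shown before the levels. RefSeq promoter windows (GRCm38.p6, 250 bases before to 50 after a start site) were matched for 7 of the 10 genes, with 3 start sites for Nfkb2 and 2 for Tnfaip3. No window was available for Nfkb1, Relb and Nfkbiz, so their promoters were not searched. A match to the kB consensus on either strand lay in at least 1 window of 5 of the 7 genes, against 5.14% of all 27025 genes and 4.51% of all 32851 windows in the table. A looser frame of 3 G, any 5 letters and 2 C on either strand, which contains every such match, occurred in 50.8% of all windows and in all 10 windows of these genes. A match is a description of the letters and does not show binding. The 5 stretches below run from 150 bases before the start site to 25 bases from it, 5′ to 3′ on the strand of the gene, with consensus matches in capitals.
Bcl3: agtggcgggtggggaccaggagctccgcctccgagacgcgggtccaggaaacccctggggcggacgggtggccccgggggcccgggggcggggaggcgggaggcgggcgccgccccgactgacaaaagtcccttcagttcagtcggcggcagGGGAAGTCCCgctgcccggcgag
Nfkb2: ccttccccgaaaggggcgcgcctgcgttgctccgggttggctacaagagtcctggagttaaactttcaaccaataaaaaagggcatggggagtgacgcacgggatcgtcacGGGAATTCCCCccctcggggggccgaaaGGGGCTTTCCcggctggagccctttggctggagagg
Rel: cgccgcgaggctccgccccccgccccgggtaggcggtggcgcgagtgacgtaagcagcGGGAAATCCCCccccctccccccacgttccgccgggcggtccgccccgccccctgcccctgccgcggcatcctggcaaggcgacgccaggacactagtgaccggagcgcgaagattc
Nfkbia: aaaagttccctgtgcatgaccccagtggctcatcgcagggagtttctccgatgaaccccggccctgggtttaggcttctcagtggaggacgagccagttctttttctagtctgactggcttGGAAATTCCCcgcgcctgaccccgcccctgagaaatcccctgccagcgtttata
Tnfaip3: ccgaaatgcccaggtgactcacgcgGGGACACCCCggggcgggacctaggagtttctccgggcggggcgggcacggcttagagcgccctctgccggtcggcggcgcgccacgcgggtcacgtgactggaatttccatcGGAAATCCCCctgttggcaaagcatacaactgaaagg
They lie at chr7:19822731-19822905 on the minus strand for Bcl3, chr19:46304587-46304761 on the plus strand for the first start site of Nfkb2, chr11:23770945-23771119 on the minus strand for Rel, chr12:55492623-55492797 on the minus strand for Nfkbia and chr10:19015386-19015560 on the minus strand for the first start site of Tnfaip3.

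In Bcl3 the match GGGAAGTCCC began 2 bases after the first base of the first exon. The first Nfkb2 window held GGGAATTCCCC, where matches on both strands overlap, 39 bases before the start site, and GGGGCTTTCC 11 bases before it. Rel held GGGAAATCCCC 92 bases and Nfkbia GGAAATTCCC 29 bases before their start sites. Tnfaip3 held GGGACACCCC 125 bases and GGAAATCCCC 12 bases before its first start site. No match to the consensus was found in the windows of Rela and Birc3 or at the second start site of Tnfaip3. Of the 5 genes with a match, Bcl3 and Nfkb2 rose in DPCP skin, Rel fell, and Nfkbia and Tnfaip3 were not called, so genes with these letters near the start site did not share a direction.

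**Figure D1:**
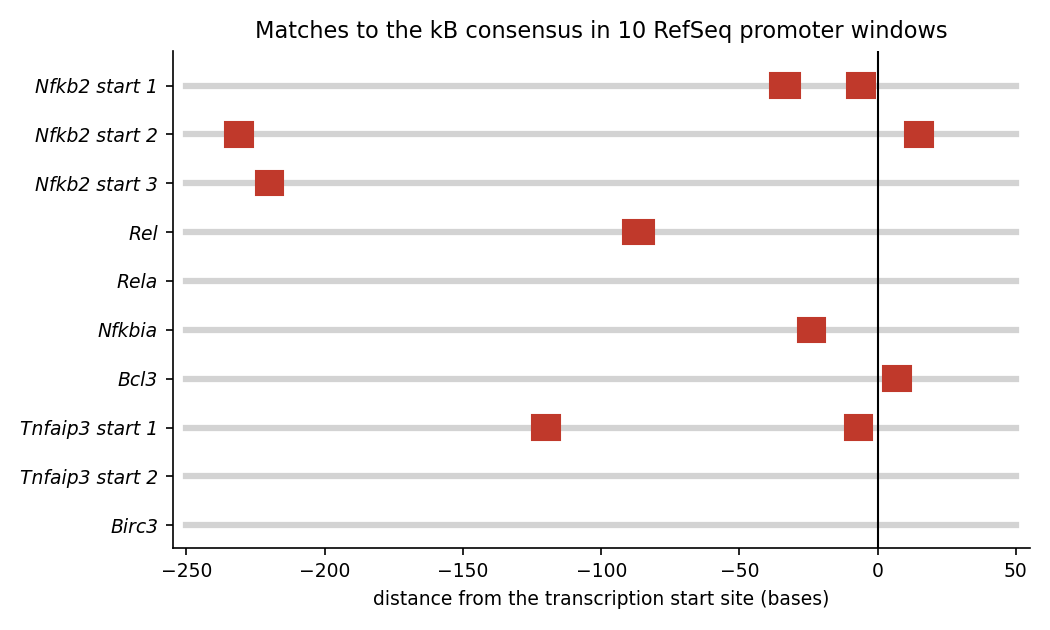
Positions of kB consensus matches (red boxes, to scale) in the 10 RefSeq promoter windows of 7 NF-kB genes, as distance in bases from the transcription start site, with genes that have several start sites shown once for each. At least 1 match of Nfkb2, Nfkbia, Bcl3 and Tnfaip3 lies within 39 bases of a start site, and the windows of Rela and Birc3 hold none.

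The libraries held 31609336 to 38846787 counts for DPCP and 28346992 to 33468828 for control skin. Levels below are CPM, counts divided by the TMM-scaled library size. A count of 0 would allow up to 0.0772 to 0.106 CPM in a library (3 counts of its total, counting error only), far under the lowest level of any of the 10 genes. On the first principal component of log2 CPM, the DPCP libraries were at 49.2, 73.8 and 71.9 and the control libraries between −65.3 and −64.5, so DPCP replicate 1 was the DPCP library closest to control skin. The defining markers of epidermis were abundant in all libraries: 6 keratinocyte markers summed to 28355 to 32749 CPM in DPCP and 20598 to 26526 CPM in control skin, with 1 higher and 2 lower. The higher marker was Krt14, at a mean of 17426 CPM in DPCP and 4776 CPM in control skin. Krt10 (1020 against 5919 CPM) and Krt1 (1853 against 3126 CPM) fell, and Krt5, Trp63 and Dsp were not called. The higher sum thus did not reflect the markers as a set.

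Of the 10 genes, Bcl3, Nfkb2 and Nfkb1 rose in DPCP skin, Rel and Nfkbiz fell, and Rela, Relb, Nfkbia, Tnfaip3 and Birc3 were not called. Bcl3 was 3.61-fold higher, whereas the other changes were under 2-fold. Calls are those of edgeR's quasi-likelihood test with Benjamini-Hochberg adjustment over 18259 genes. Over all of these, 22.8% were called higher and 23.3% lower, 46.1% in either direction, so 3 and 2 of 10 are shares near the background and no result about the 10 genes as a group. All 3 DPCP libraries lay above all 3 control libraries in 4 of the 10 genes, as in 28.6% of all genes tested, and below them in 2, as in 29.4%. Their median log2 fold change was 0.22, beside −0.01 for all genes tested, and their median size of change regardless of sign was 0.33, beside 0.41. In whole tissue, fewer cells of a type and less RNA per cell cannot be told apart.

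**Figure D2:**
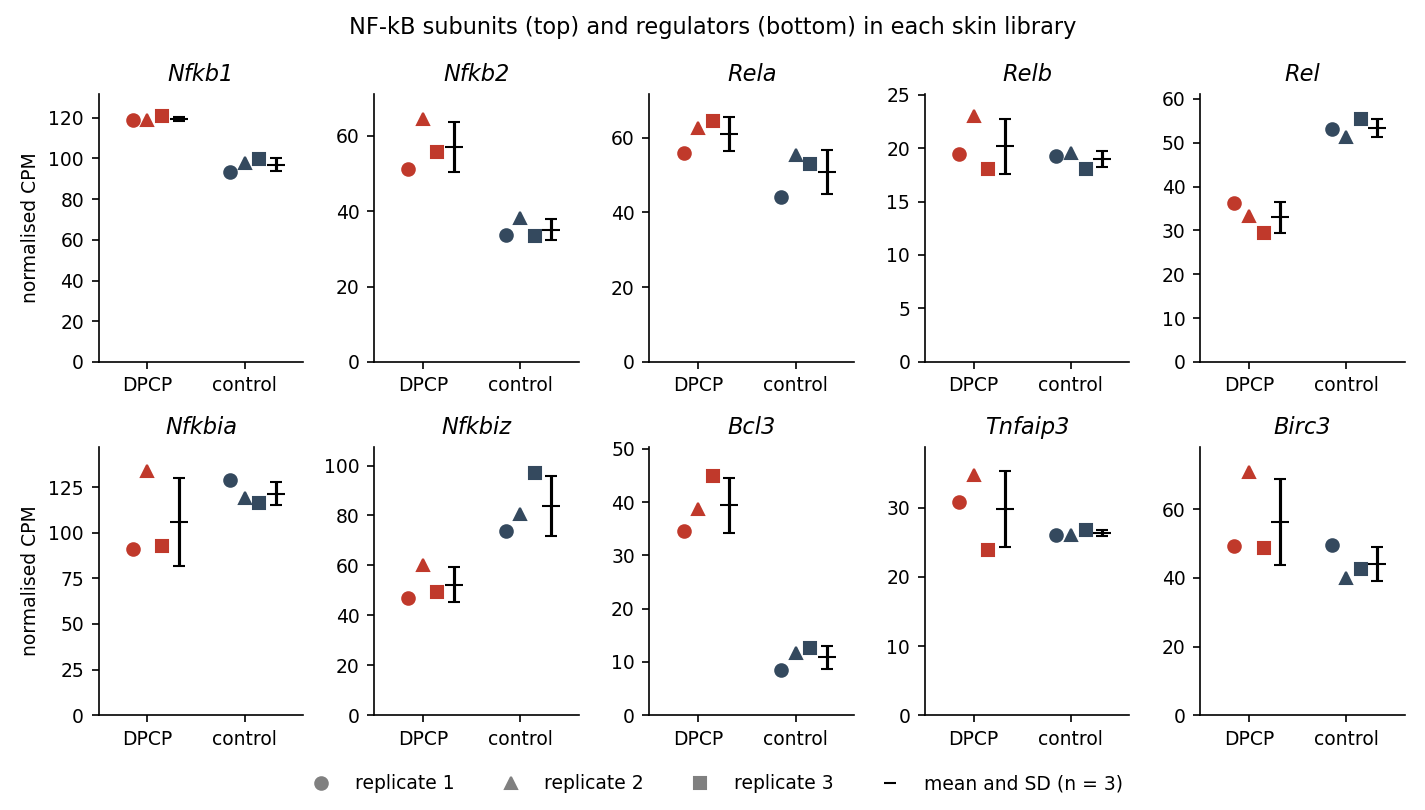
Normalised CPM (linear axes from 0) of the 5 subunit genes and the 5 regulator genes in each library, DPCP in red and control in dark blue, with marker shapes for replicate numbers and a bar for mean and SD (n = 3 each). Bcl3, Nfkb2, Nfkb1 and Rela lie above all control libraries in DPCP skin, Rel and Nfkbiz lie below them, and the groups overlap in the other 4 genes.

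Nfkb1 (ENSMUSG00000028163, chromosome 3, 135584655 to 135691547) encodes p105, the precursor of p50. It had 119, 119 and 121 CPM in the DPCP libraries, against 93.2, 97.7 and 99.5 CPM in the control libraries. The DPCP libraries were nearly level, the highest being 1.017 times the lowest, and all lay above control. The log2 fold change was 0.30 ± 0.07 (SE, edgeR adjusted p = 0.0102), the smallest of the 5 called changes.

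Nfkb2 (ENSMUSG00000025225, chromosome 19, 46304320 to 46312385) encodes p100, both a subunit precursor and an inhibitor. It had 51.3, 64.4 and 55.7 CPM in the DPCP libraries, against 33.6, 38.3 and 33.4 CPM in the control libraries, with no overlap. The log2 fold change was 0.70 ± 0.11 (SE, edgeR adjusted p = 0.00111), the largest rise among the subunits. Of its 4584 exon bases, 830 overlap 2 genes on the other strand, Psd and AC114539.1. Reads there were not counted, and strand was not used, so this level is uncertain.

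Relb (ENSMUSG00000002983, chromosome 7, 19606217 to 19629438) encodes the partner of p52. It had 19.5, 23.0 and 18.0 CPM in the DPCP libraries, against 19.3, 19.6 and 18.1 CPM in the control libraries, and the groups overlapped. The difference was 0.09 ± 0.12 on the log2 scale (SE, edgeR adjusted p = 0.563), with a 95% interval of −0.18 to 0.35, and was −0.019 without DPCP replicate 2. Relb and Bcl3 lie 179 kb apart on chromosome 7, and Bcl3 rose while Relb was not called.

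Rela (ENSMUSG00000024927, chromosome 19, 5637483 to 5648130) encodes p65, the main activating subunit of the canonical route. It had 55.9, 62.7 and 64.4 CPM in the DPCP libraries, against 44.2, 55.3 and 53.0 CPM in the control libraries. Every DPCP library was above every control library, but the nearest pair differed little and the test was missed (log2 fold change 0.26 ± 0.11, SE, edgeR adjusted p = 0.0744). Without DPCP replicate 1 it was called (0.33, adjusted p = 0.0491). Its adjusted p lay between 0.0344 and 0.198 over all 14 alternatives.

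Rel (ENSMUSG00000020275, chromosome 11, 23736847 to 23770970) encodes c-Rel, an activating subunit best known from lymphocytes and myeloid cells. It had 36.3, 33.3 and 29.4 CPM in the DPCP libraries, against 53.3, 51.3 and 55.4 CPM in the control libraries. All 3 DPCP libraries lay below control, and this was the only subunit gene that fell (log2 fold change −0.69 ± 0.10, SE, edgeR adjusted p = 0.00074). Summed over 6 lymphocyte markers, DPCP libraries had 9.57 to 13.0 CPM and control libraries 30.4 to 40.3 CPM, and 3 of the 5 tested markers fell. The B cell marker Ms4a1 was at 0 in 1 control library. The part of these cells in the level of Rel was not tested.

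Nfkbia (ENSMUSG00000021025, chromosome 12, 55489410 to 55492647) encodes IkB alpha, the inhibitor that canonical signalling destroys and that NF-kB then restores. It had 91.2, 134 and 92.6 CPM in the DPCP libraries, against 129, 119 and 116 CPM in the control libraries. DPCP replicate 2 was the highest of all 6 libraries and the other 2 DPCP libraries were the lowest, so the groups overlapped. The log2 fold change was −0.20 ± 0.15 (SE, edgeR adjusted p = 0.302), with a 95% interval of −0.54 to 0.14. Without DPCP replicate 2 it was −0.40 and was called lower (adjusted p = 0.0129, between 0.0129 and 0.64 over the alternatives).

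Nfkbiz (ENSMUSG00000035356, chromosome 16, 55811375 to 55838899) encodes IkB zeta, a nuclear cofactor that NF-kB dimers need at some inflammatory target genes, in keratinocytes among other cells. It had 47.1, 60.2 and 49.3 CPM in the DPCP libraries, against 73.7, 80.7 and 97.0 CPM in the control libraries. No DPCP library reached the control range, and the log2 fold change was −0.68 ± 0.13 (SE, edgeR adjusted p = 0.0033).

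Bcl3 (ENSMUSG00000053175, chromosome 7, 19808462 to 19822770) encodes another nuclear IkB protein, which acts with p50 and p52 homodimers. It had 34.6, 38.7 and 44.8 CPM in the DPCP libraries, against 8.41, 11.7 and 12.6 CPM in the control libraries. The groups were far apart, and the rise of 1.85 ± 0.16 on the log2 scale (SE, edgeR adjusted p = 7.4e-05) was the largest change of the 10. It was 1.71 to 1.97 when single libraries were left out. A gene on the other strand, Gm16175, shares 161 of the 2475 exon bases of Bcl3 but had at most 4 counts in any library.

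The balance of the nuclear pair differed between the groups. Per kilobase of exon, Bcl3 was at 1.49, 1.30 and 1.84 times Nfkbiz in the DPCP libraries, against 0.232, 0.293 and 0.263 times in the control libraries. On that scale Bcl3 was above Nfkbiz in all 3 DPCP libraries and below it in all 3 control libraries. Without division by exon length, Bcl3 was below Nfkbiz in all 6 libraries, DPCP libraries included (34.6 against 47.1, 38.7 against 60.2 and 44.8 against 49.3 CPM), so which of the pair is higher in DPCP skin depends on the lengths used. By level per kilobase it had rank 3 of the 10 genes in DPCP skin and rank 9 in control skin.

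Tnfaip3 (ENSMUSG00000019850, chromosome 10, 19000910 to 19015657) encodes A20, a ubiquitin-editing enzyme that shuts off signalling upstream of the kinase complex. It had 30.9, 34.8 and 23.8 CPM in the DPCP libraries, against 26.1, 25.99 and 26.8 CPM in the control libraries. The DPCP libraries spread on both sides of the narrow control range (log2 fold change 0.18 ± 0.13, SE, edgeR adjusted p = 0.298). Its 95% interval was −0.12 to 0.49. Without DPCP replicate 3 it was 0.33 and was called higher (adjusted p = 0.0355, between 0.0355 and 0.762 over the alternatives).

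Birc3 (ENSMUSG00000032000, chromosome 9, 7848699 to 7873186) encodes the ubiquitin ligase cIAP2, which takes part in signalling from tumour necrosis factor receptors and in keeping NIK low. It had 49.4, 70.8 and 48.8 CPM in the DPCP libraries, against 49.7, 40.0 and 42.6 CPM in the control libraries. DPCP replicate 2 stood apart, and the log2 fold change was 0.35 ± 0.16 (SE, edgeR adjusted p = 0.0964). It was 0.15 without DPCP replicate 2, and without a count filter it was called (0.36, adjusted p = 0.0363, between 0.0363 and 0.327 over the alternatives).

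**Figure D3:**
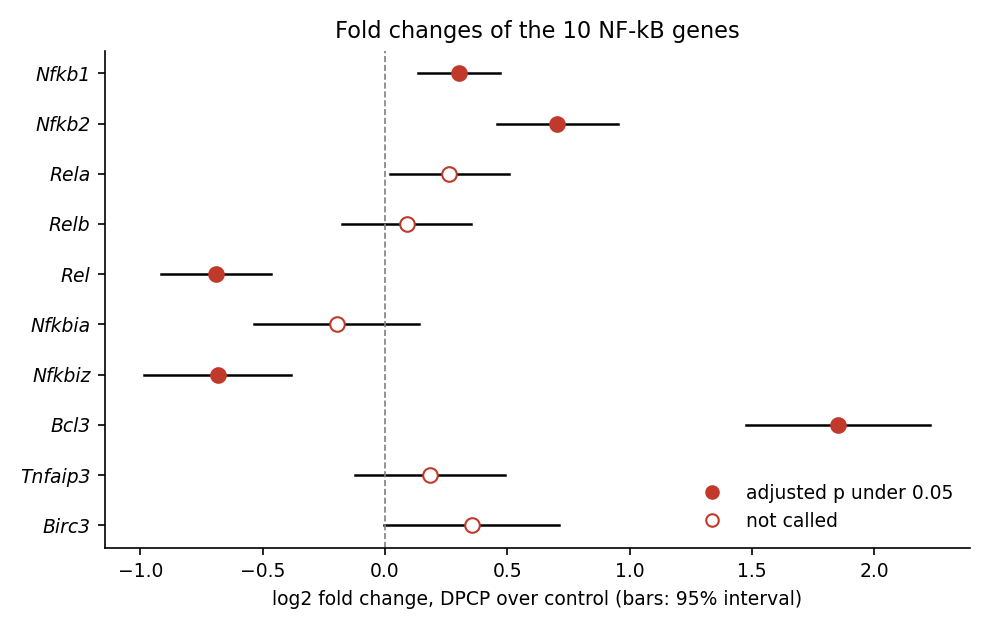
Log2 fold changes (DPCP over control) of the 10 genes with 95% intervals from edgeR (n = 3 each), filled where the adjusted p was under 0.05. Bcl3 stands apart at 1.85, Rel and Nfkbiz lie at −0.69 and −0.68, and the intervals of Relb, Nfkbia, Tnfaip3 and Birc3 cross 0.

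DPCP replicate 2 had the highest DPCP level of 6 of the 10 genes, namely Nfkb2, Relb, Nfkbia, Nfkbiz, Tnfaip3 and Birc3. Among the DPCP libraries it also had the highest sums of neutrophil, macrophage, fibroblast (7682 CPM), endothelial (425 CPM), dendritic (134 CPM) and mast cell (459 CPM) markers. Its keratinocyte sum was the lowest of the DPCP libraries (28355 CPM), and its lymphocyte and muscle sums lay between those of the others. How often this library was the highest over all genes tested was not computed, so the count is no trait of the 10 genes. The 6 neutrophil markers summed to 125, 328 and 188 CPM in the DPCP libraries, against 14.2, 14.0 and 13.4 CPM in the control libraries, and all 5 tested rose. Of these markers, Mmp8, Ly6g and Trem1 were at 0 in control replicate 1. The 6 macrophage and monocyte markers summed to 1496, 2496 and 1459 CPM in the DPCP libraries, against 958, 1052 and 638 CPM in the control libraries, and 4 rose. The part of these cell types in the levels of the NF-kB genes was not tested. Without DPCP replicate 2, the log2 fold changes of Bcl3, Nfkb2, Nfkb1, Rel and Nfkbiz were 1.87, 0.61, 0.31, −0.70 and −0.80, and all 5 were still called.

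Among markers of other cells of the skin sample, endothelial, mast cell and skeletal muscle sums were apart between the groups. Fibroblast and dendritic sums overlapped. Endothelial markers summed to 362 to 425 CPM in DPCP and 219 to 258 CPM in control skin, with 4 of 6 higher and 1 lower. Fibroblast markers summed to 6315 to 7682 CPM in DPCP and 4746 to 6735 CPM in control skin (2 of 6 higher), and mast cell markers to 358 to 459 CPM in DPCP and 250 to 290 CPM in control skin (4 of 6 higher). Dendritic and Langerhans cell markers were at 75.8 to 134 CPM in DPCP and 84.6 to 113 CPM in control skin (1 higher and 2 lower of 6). Skeletal muscle markers summed to 2585 to 5389 CPM in DPCP and 9322 to 12572 CPM in control skin, and 5 of 6 fell.

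Divided by exon length, the subunit genes can be compared with each other. On this scale Rela was the highest subunit in both groups, at 19.8 ± 1.46 CPM per kilobase in DPCP and 16.5 ± 1.90 in control skin (SD, n = 3 each). In DPCP skin Nfkb2 came next at 12.5 ± 1.45, then Nfkb1 at 9.90 ± 0.095, Relb at 5.19 ± 0.657 and Rel at 4.42 ± 0.468 CPM per kilobase, and the ranges of Relb and Rel overlapped. In control skin Nfkb1 (8.03 ± 0.270), Nfkb2 (7.65 ± 0.601) and Rel (7.14 ± 0.279) came after Rela, with ranges that overlapped between neighbours among these 3, and Relb was last at 4.88 ± 0.202. Exon length counts every annotated transcript, so genes with long or many transcripts, such as Nfkb1 with 12061 bases, may be understated on this scale. Without division by exon length, Nfkb1 was above Rela in every library. The means were 119 against 61.0 CPM in DPCP and 96.8 against 50.8 CPM in control skin. Which subunit is the most abundant thus depends on the lengths used.

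The make-up of the subunit transcripts differed most in Nfkb2 and Rel. As a share of the 5 subunits per kilobase, Nfkb2 took 22.8%, 25.7% and 23.5% in the DPCP libraries, against 17.6%, 18.0% and 16.2% in the control libraries. Rel took 9.91%, 8.16% and 7.61% in the DPCP libraries, against 17.2%, 14.8% and 16.5% in the control libraries. Both sets of shares were fully apart, and the mean differences were 6.70 and −7.62 percentage points. Exact two-sided permutation tests gave p = 0.1 for each, the smallest that 3 against 3 allows, and 0.25 after adjustment over the 5 subunits. Rela, at 38.3% ± 1.95 in DPCP and 37.3% ± 2.32 in control skin (SD, n = 3 each), and Nfkb1, at 19.1% ± 1.05 in DPCP and 18.2% ± 0.594 in control skin, overlapped between the groups. Relb, at 8.97% to 10.8% in DPCP and 10.4% to 11.9% in control libraries, overlapped as well. Without division by exon length the differences in share were 3.14 percentage points for Nfkb1 and −0.526 for Relb, against 0.984 and −1.06 with it. The Nfkb1 shares were then fully apart, higher in DPCP skin, so their overlap depends on the lengths used. Those of Relb still overlapped.

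**Figure D4:**
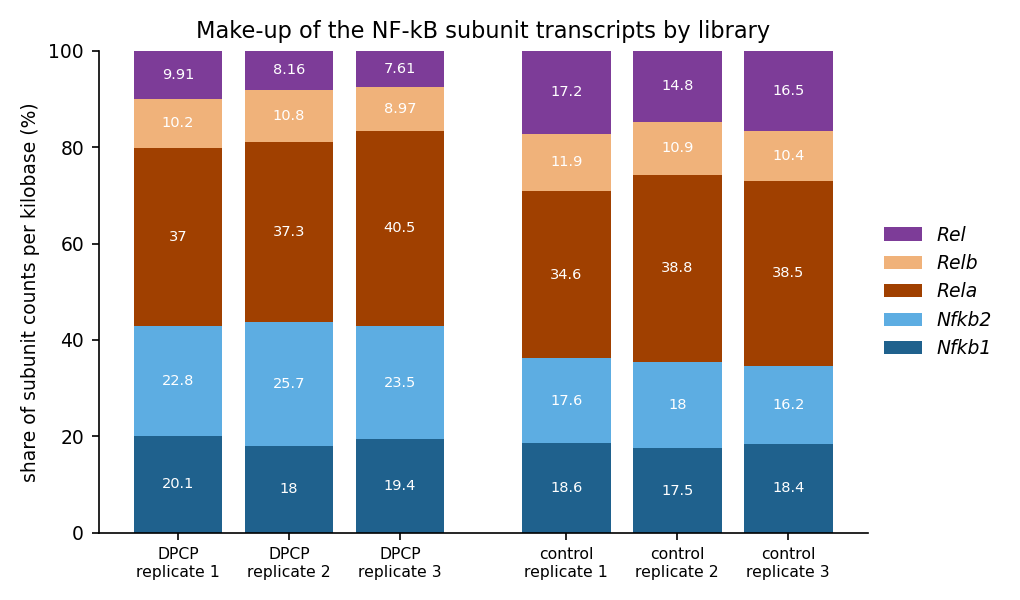
Share (%) of each subunit gene in the summed counts per kilobase of the 5 subunits, one stacked bar for each library. Nfkb2 takes 22.8% to 25.7% in DPCP and 16.2% to 18.0% in control libraries, and Rel 7.61% to 9.91% in DPCP and 14.8% to 17.2% in control libraries.

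Across all 10 genes Nfkbia had the highest level per kilobase in both groups, at 65.7 ± 14.97 CPM per kilobase in DPCP and 75.4 ± 4.04 in control skin (SD, n = 3 each), and Tnfaip3 the lowest mean, at 4.13 ± 0.768 in DPCP and 3.64 ± 0.060 in control skin. The range of Tnfaip3 overlapped that of Rel in DPCP skin and that of Bcl3 in control skin. In DPCP skin Rela was followed by Bcl3 (15.9 ± 2.09), Nfkb2, Birc3 (11.2 ± 2.51), Nfkbiz (10.4 ± 1.40) and Nfkb1. From Bcl3 to Nfkb1, neighbours in that order overlapped in their ranges. In control skin Nfkbiz (16.7 ± 2.38) stood beside Rela, followed by Birc3 (8.80 ± 1.004), and Bcl3 (4.40 ± 0.882) came between Relb and Tnfaip3.

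Other genes of the pathway, 106 in 6 lists, were read from the same test, and 103 had enough counts. Of these, 45 were called higher (43.7%, beside 22.8% of all genes tested) and 20 lower (19.4%, beside 23.3%), with a median log2 fold change of 0.23. The difference between these shares was not tested. The lists were chosen with earlier results of these data known, so the choice of genes may enter these shares. The count of lower genes was 13 without DPCP replicate 3, 12 without control replicate 1 and 13 without control replicate 3.

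Among 13 tested ligands of receptors that feed NF-kB, 6 rose (46.2%, beside 22.8% of all genes tested) and 1 fell (7.69%, beside 23.3%). Il1b, the interleukin 1 beta gene, had 99.99, 385 and 154 CPM in the DPCP libraries, against 3.54, 1.77 and 1.64 CPM in the control libraries (log2 fold change 6.53 ± 0.60, SE, and 5.79 without DPCP replicate 2). The alarmin gene Il33 (1.43 ± 0.12) and Tnfsf14 (3.08 ± 0.42), whose product LIGHT binds the lymphotoxin beta receptor, also rose, while Il36a, an epidermal interleukin 1 family member, fell (−1.25 ± 0.20). Of 14 receptors, 9 rose (64.3%) and 3 fell (21.4%), and the share that fell was near that of all genes tested. Il1rl1, the receptor for interleukin 33, rose by 2.05 ± 0.27, the interleukin 1 receptor gene Il1r1 by 1.27 ± 0.19 and the TWEAK receptor gene Tnfrsf12a by 1.41 ± 0.15 on the log2 scale. Il18r1 fell (−0.60 ± 0.15), as did Tnfrsf13c, the gene of the B cell receptor for BAFF, which was under 1 CPM in every library (−1.91 ± 0.49, and −2.67 without DPCP replicate 2).

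Of 21 adaptors, receptor-side kinases and ubiquitin ligases between receptors and the kinase complex, 6 rose (28.6%) and 4 fell (19.0%). These shares were near those of all genes tested, and the median log2 fold change was 0.05. The Toll and interleukin 1 receptor adaptor Myd88 rose by 1.17 ± 0.10, the kinase gene Irak4 by 0.81 ± 0.10 and Traf3, which holds NIK low, by 0.55 ± 0.08 on the log2 scale, while Card14, a scaffold of keratinocytes, and Traf5 fell (−1.14 ± 0.14 and −0.98 ± 0.12). Of 11 genes in a list of kinases and their binding partners, 1 rose (9.09%, beside 22.8% of all genes tested) and 4 fell (36.4%, beside 23.3%). The median of that list was −0.16. The riser was Map3k14, which encodes NIK, with 19.3, 20.9 and 19.3 CPM in the DPCP libraries, against 11.9, 16.9 and 12.3 CPM in the control libraries (log2 fold change 0.53 ± 0.15, SE, edgeR adjusted p = 0.0179). It was not called without DPCP replicate 2, control replicate 1 or control replicate 3 (adjusted p = 0.057, 0.0593 and 0.0617, between 0.00339 and 0.0617 over the alternatives). Map3k8 and Ikbke fell (−0.67 ± 0.15 and −0.45 ± 0.10). The lower count of the adaptor list was 2 without DPCP replicate 3, control replicate 1 or control replicate 3. That of the list of kinases and partners was likewise 2.

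Of 20 other brakes, 6 rose (30%, beside 22.8% of all genes tested) and 7 fell (35%, beside 23.3%), with a median of 0.05, and 7 were not called. The count of lower brakes was 4 without control replicate 1 or control replicate 2. The IkB family genes differed among themselves. Nfkbid, a nuclear IkB like Nfkbiz and Bcl3, had 8.83, 19.4 and 11.7 CPM in the DPCP libraries, against 3.51, 3.37 and 3.19 CPM in the control libraries (1.99 ± 0.28). Nfkbie, which encodes IkB epsilon, a cytoplasmic inhibitor like the product of Nfkbia, rose by 1.02 ± 0.19 on the log2 scale. Nkrf, a repressor of NF-kB target genes, rose by 0.60 ± 0.14. Zc3h12a, which encodes the RNase regnase-1 that destroys inflammatory transcripts, fell (−0.80 ± 0.12), and so did Nkiras1 (−0.62 ± 0.12).

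Of 24 tested target genes outside the 10, 17 rose and 1 fell (4.17%, beside 23.3% of all genes tested). Their median log2 fold change was 1.19. The E-selectin gene Sele rose by 2.51 ± 0.19, Hif1a by 1.57 ± 0.12 and the neutrophil chemokine gene Cxcl2, at a mean of 122 CPM in DPCP and 0.253 CPM in control skin, by 8.87 ± 0.71 on the log2 scale (8.17 without DPCP replicate 2), while the chemokine gene Ccl20 fell (−1.02 ± 0.23). The share of targets called higher was 70.8%, that of the 10 NF-kB genes 30.0% and that of all genes 22.8%. The lists differ in size and expression and were chosen with earlier results of these data known. The difference between them was not tested. Of the pathway genes named, Il1b, Irak4, Myd88, Card14, Traf5, Map3k14, Ikbke, Nkiras1 and Hif1a share exon bases with another gene, so their levels are uncertain.

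**Figure D5:**
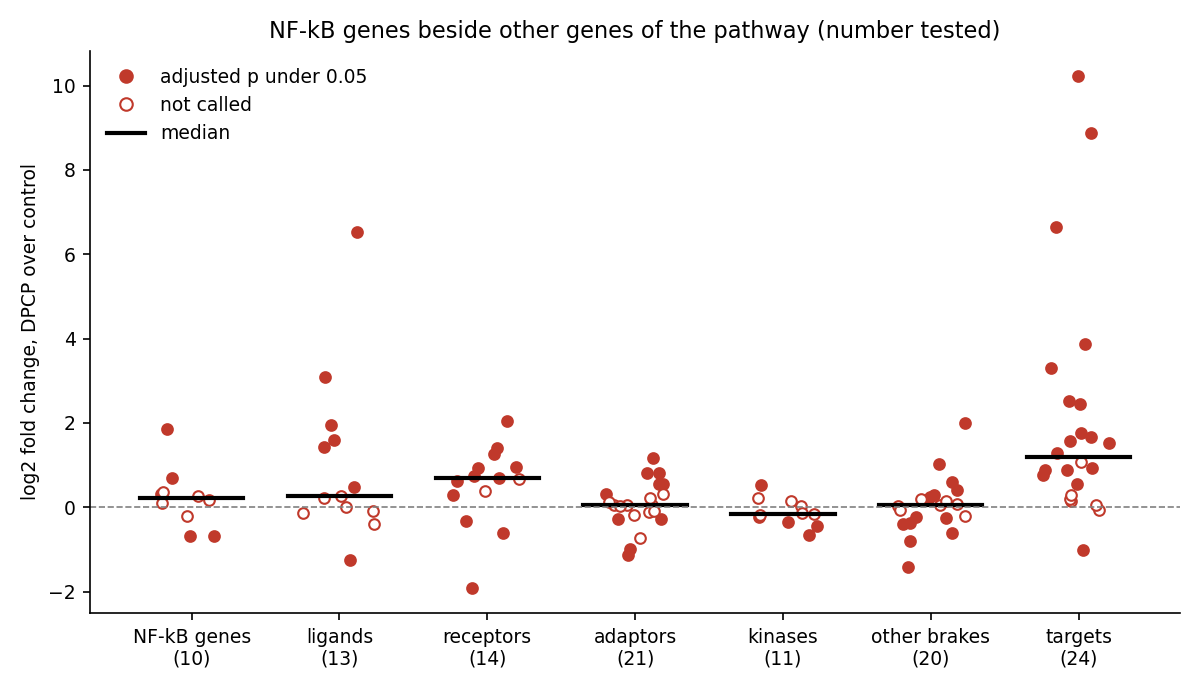
Log2 fold changes (DPCP over control) of the tested genes in each list, filled where the edgeR adjusted p was under 0.05, with a black bar for the median and the number tested under each name. Medians run from −0.16 for the list of kinases and their binding partners to 1.19 for targets, with the 10 NF-kB genes at 0.22.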

How the data were processed

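Polyadenylated RNA of 6 skin samples was sequenced in pairs from a strand-preserving library kit, per the labels' protocols. The authors deposited raw counts per gene, made with featureCounts 1.6.2 on the Ensembl GRCm38 release 102 annotation with no option for strand, pairs or multiple alignments, per the file headers. Mates were thus counted singly and on either strand, and reads over exons of several genes were left out. The submitters' processing notes name the build mm10 and, among tools, DESeq2 1.34.0, HISAT2 2.2.1, Trimmomatic 0.36 and StringTie 2.2.1. Symbols came from GENCODE M21, which matched 55141 of 55487 identifiers. 3 Il36 genes were matched through older symbols in RefSeq. Tests used edgeR 4.0.16 in R 4.3.3 (quasi-likelihood F-test, TMM, filterByExpr defaults, adjusted p under 0.05). Standard errors are the unshrunken log2 fold change over the square root of F. DESeq2 1.42.0 and limma 3.58.1 (voom) were alternatives. The procedure was run on simulated data in which far fewer genes were changed than were called here. That run cannot gauge the error rate of these calls. No library was a copy of another, since chi-square per gene was 18.2 or more for every pair. The 10 genes and all lists were chosen with earlier results of these data known. Named from each list were up to 3 genes called higher and 2 called lower with the smallest p. Replicate numbers were not taken as pairs of libraries.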

Additional observations from a re-analysis of the deposited data

How the results depend on the processing

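Over 8 other settings (RLE, upper-quartile or no scaling factors, no count filter, at least 1 CPM in a whole group, DESeq2, limma-voom and the replicate block) the 10 NF-kB genes kept their direction, and Bcl3, Nfkb2, Nfkb1, Rel and Nfkbiz stayed called in each of these and in all 6 fits that left out a library. Of the other 5, Birc3 was called without a count filter and Rela with the replicate block (log2 fold change 0.27, edgeR adjusted p = 0.0344). With the replicate block 4260 genes were higher and 4241 lower, against 4163 and 4254 without it, and 46 and 20 of the pathway genes. Same-numbered libraries deviated together at correlations of 0.0455, 0.0265 and 0.112, and not every library correlated best with its own number, so the numbers were not taken as pairs. With 3 libraries in each group, these correlations cannot exclude pairing. When single libraries were left out, 3 to 4 of the 10 genes were higher and 2 to 3 lower, 38 to 48 pathway genes were higher and 12 to 17 lower, the log2 fold change of Relb ran from −0.019 (without DPCP replicate 2) to 0.17, and the difference in the share of Rela from −0.341 to 1.76 percentage points, below 0 without DPCP replicate 3 or control replicate 1. The cause was not tested. Each of the 10 genes had at least 247 counts in every library.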

Other observations

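The mean standardised log2 CPM of the 10 genes was 0.915 in DPCP replicate 2, while DPCP replicates 1 and 3 had −0.0097 and −0.16 and the control libraries −0.36 to −0.19. The mean takes in genes that rose and genes that fell. The 5 genes whose log2 CPM followed this profile most closely over the 6 libraries, among 12275 genes outside the lists with a mean of at least 5 CPM, were Rbm45, Dsel, Lrp11, Coa7 and Tlr5 (Pearson's r of 0.990, 0.985, 0.984, 0.967 and 0.961, as a description). All 5 were highest in DPCP replicate 2, as was the profile by which they were chosen. None was called by edgeR between the groups (adjusted p = 0.241 to 0.378), and that choice bears on both points.

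Csf3, the granulocyte colony stimulating factor gene and a target in the list, falls outside the naming rule and was chosen after its values were seen. It had 479 counts over the DPCP libraries and 0 over the control libraries, so its share was at least 138-fold higher in DPCP skin (3 counts over the control group). Of these counts 311 came from DPCP replicate 2, and without it the bound was 76.6-fold.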
